A study of Mus musculus with 24 samples.

Results

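The comparison described here follows wild-type (WT) mouse cells from day 7 of neural differentiation, when they were neural progenitor cells (NPCs), to day 10, when cells carrying polysialylated NCAM (PSA-NCAM+ cells) had been purified. It rests on 6 of the 24 samples of the series, 3 libraries of WT NPCs and 3 of WT PSA-NCAM+ cells, and the samples were chosen by their labels alone. Both groups derive from E14 mouse embryonic stem cells (ESCs) and carry no engineered allele of Polr2a. NPCs had been collected as an adherent monolayer grown in N2B27 medium on gelatin. PSA-NCAM+ cells had been kept in the same medium to day 10, detached with accutase and then bound to beads that carry an antibody against PSA-NCAM, so time, detachment and purification cannot be told apart. The series also holds ESCs and mature neurons, and the same 4 stages in slow/slow cells, in which both copies of Polr2a, encoding the large subunit of RNA polymerase II, carry a point mutation that replaces an arginine with histidine. The 3 slow/slow NPC and 3 slow/slow PSA-NCAM+ libraries, collected at the same days, were used for comparison. The paper reports that slow/slow cells died more at low plating density. The density used for each library was not stated, so it may differ between genotypes. Independent differentiations were stated for ESCs, NPCs and neurons but not for PSA-NCAM+ cells, so p-values measure the spread between these libraries, which may be technical in part, and all cells trace back to 1 parental ESC line.

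Neural progenitors are dividing cells that express Sox and Pax transcription factors and the intermediate filament nestin, and they give rise to neurons and later to glia. NCAM, the neural cell adhesion molecule, is an adhesion protein of the cell surface. Long chains of sialic acid are added to it by the polysialyltransferases St8sia2 and St8sia4, which loosens adhesion and marks migrating neuroblasts and immature neurons. Neuronal genes are also spliced in their own way, through cassette exons and very short microexons that are skipped or included depending on RNA-binding proteins.

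Total counts per library were 46023676, 63535348 and 64208791 in WT NPCs and 84206557, 48373003 and 56849240 in WT PSA-NCAM+ cells. The PSA-NCAM+ libraries differed more among themselves than the NPC libraries, with a median standard deviation (SD) across genes of 0.224 against 0.079 on the log2 scale of CPM (counts relative to a fixed library total, scaled by TMM). PSA-NCAM+ replicate 1 stood apart from the other two. Among 10166 genes above 10 CPM in a PSA-NCAM+ library, it was over 2-fold above the mean of the others for 440. It was over 2-fold below that mean for 150. Replicate 1 of slow/slow PSA-NCAM+ cells stood apart in the same manner. The counts of gene lists are therefore also given without PSA-NCAM+ replicate 1, as are single genes whose call or whose fold (by over 1.5 times) depended on it. Polr2a itself was at 290.3, 349 and 321 CPM in NPCs and 263, 332 and 359 CPM in PSA-NCAM+ cells, and did not pass the test described below (log2 change -0.01 ± 0.13, FDR 0.956).

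The labels were checked against marker genes across all 4 WT stages. The values of this check are means or sums of CPM with TMM scaling over all 24 libraries, so those of NPCs and PSA-NCAM+ cells lie slightly below the values given later, which are scaled over the 6 libraries compared. The neuronal tubulin gene Tubb3 was at 40.9 CPM in ESCs and 15.8 CPM in NPCs (means of 3 libraries), against 19.95 CPM in PSA-NCAM+ cells and 928 CPM in neurons. Dcx, a microtubule protein of migrating neuroblasts, was at 0.304, 0.247, 1.96 and 1118 CPM in the same order, so it was near 0 in PSA-NCAM+ cells. Pou5f1, which encodes the pluripotency factor Oct4, was at 1760, 639, 412 and 82.8 CPM, and Nanog was at 1039, 384, 260 and 6.82 CPM. Pax6, a defining progenitor factor, reached 4.30 CPM in NPCs and 2.98 CPM in PSA-NCAM+ cells. Summed over the list of neuronal genes, PSA-NCAM+ libraries held 294 to 411 CPM, NPCs 350.3 to 361 and neurons 12930.0 to 13980.0. Summed neuronal genes were thus near the ESC level in both groups, and both pluripotency genes were well above neurons. The groups are called NPCs and PSA-NCAM+ cells here after their labels. In bulk RNA, fewer cells of a type and less RNA per cell cannot be told apart.

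**Figure D1:**
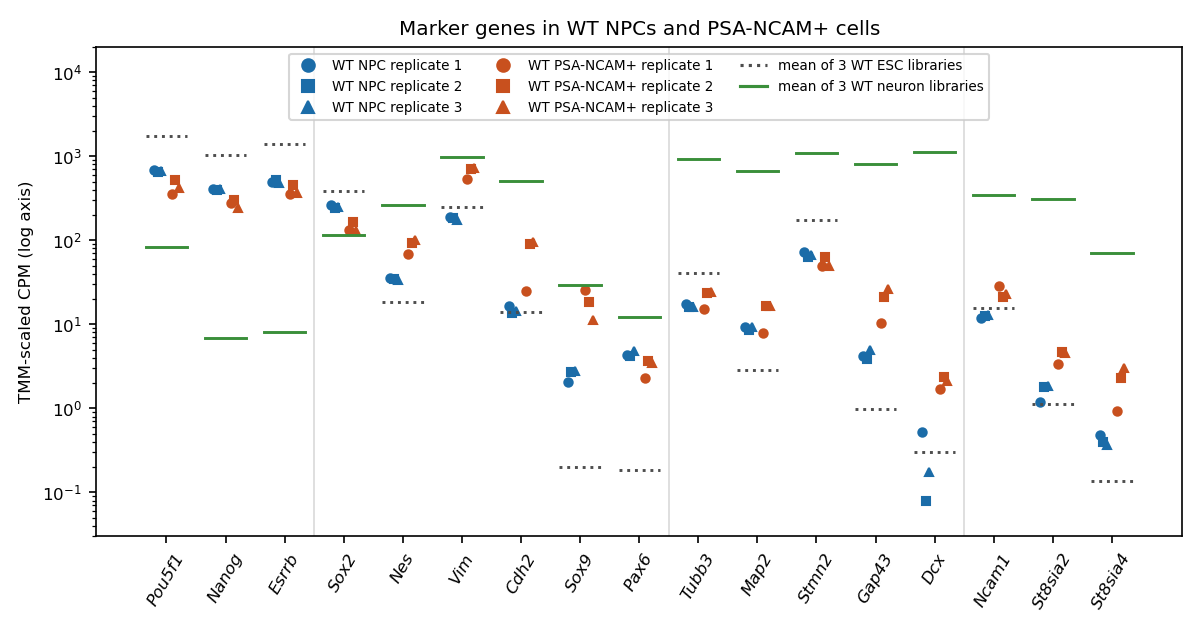
TMM-scaled CPM (log axis) of marker genes; points are the 3 WT NPC and 3 WT PSA-NCAM+ libraries, scaled over these 6, and the dotted and solid lines are the means of 3 WT ESC and 3 WT neuron libraries, scaled over all 24. Tubb3 was at 17.4, 16.02 and 16.2 CPM in NPCs and 15.2, 23.4 and 24.5 CPM in PSA-NCAM+ cells, with the line of neurons at 928 CPM.

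Between day 7 and day 10, 5394 of 15512 tested genes changed (34.8%, edgeR's quasi-likelihood test, false discovery rate (FDR) under 0.05). Of all tested genes 18.2% were higher in PSA-NCAM+ cells (2821) and 16.6% were lower (2573), and the median log2 change was 0.008. Of 1657 genes changed at least 2-fold, 1149 rose and 508 fell. The NPC and PSA-NCAM+ libraries did not overlap for 8477 of the 15512 tested genes (54.6%), so a lack of overlap is common. Without PSA-NCAM+ replicate 1, 8943 of 15547 genes changed (57.5%), 28.9% of them higher and 28.6% lower as shares of all genes tested, and 5372 of the 5394 genes passed again, all with the same sign. Leaving out an NPC library instead gave 2560, 2335 and 2191 genes for replicates 1, 2 and 3. The lists of genes described below are read against these shares, since a list in which about 18.2% of members rose shows no more than the table as a whole. Some genes, such as Btg2 and Cdkn1a, belong to more than 1 list and are counted in each. Counts said to be without replicate 1 leave out PSA-NCAM+ replicate 1, name members that rose and fell in the order used before them, and are read against 28.9% and 28.6%. A log2 change is always PSA-NCAM+ over NPC, is followed by ± its standard error, and values of single libraries are given in CPM in the order of replicates 1, 2 and 3.

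**Figure D2:**
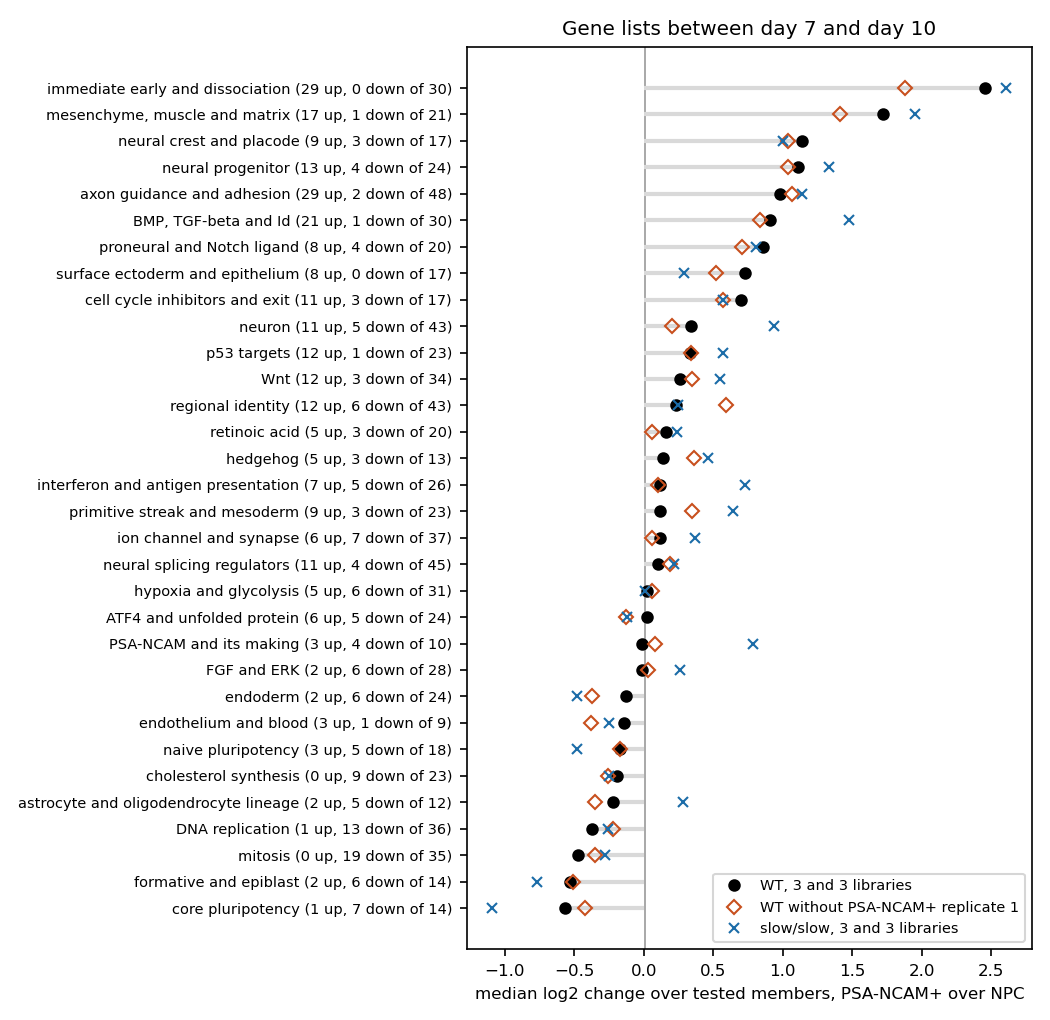
Median log2 change (PSA-NCAM+ over NPC) of the tested members of each gene list, with all 6 WT libraries, without PSA-NCAM+ replicate 1, and in slow/slow cells. Immediate early genes had a median of 2.46 with all libraries and 1.88 without replicate 1, and genes of mitosis lay below 0.

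The list with the highest median change was that of immediate early genes, which respond within minutes to growth factors, calcium or handling of cells and include the AP-1 and EGR transcription factors. Of 30 tested members 29 rose and 0 fell, with a median log2 change of 2.46. The figures were 29 and 0 without PSA-NCAM+ replicate 1 (median 1.88), and in slow/slow cells 23 rose and 0 fell. The one member that did not pass was Hspa8, a constitutive chaperone (log2 change 0.05, FDR 0.644). Fos, a subunit of AP-1 (chromosome 12, 85473890 to 85477273, plus strand; gene positions are from GENCODE vM21, GRCm38), was at 10.4, 10.1 and 10.1 CPM in NPCs and 653, 592 and 623 CPM in PSA-NCAM+ cells. The 3 PSA-NCAM+ libraries were close to each other and far above every NPC library (log2 change 5.93 ± 0.09, FDR 5.35e-07). Across the WT stages, scaled over 24 libraries, Fos averaged 2.11 CPM in ESCs and 13.1 CPM in neurons, so PSA-NCAM+ cells had the highest level of the 4 stages. Fosb went from 0.327, 0.628 and 1.15 CPM to 701, 544 and 265 CPM (log2 change 9.44 ± 0.58, FDR 0.000485), with its highest value in replicate 1.

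Other AP-1 and EGR genes followed. Egr1, a zinc-finger factor induced by ERK signalling, was at 31.2, 28.1 and 25.7 CPM in NPCs and 309.7, 343 and 447 CPM in PSA-NCAM+ cells (log2 change 3.70 ± 0.17, FDR 0.000272). Jun rose by 2.90 on the log2 scale, Junb by 2.62, Fosl1 by 4.24 and Fosl2 by 2.41. Atf3, a stress-induced repressor, was more uneven, at 24.8, 22.2 and 24.7 CPM and then 429.9, 195 and 103 CPM (log2 change 3.34 ± 0.50, FDR 0.00388), with replicate 1 above the other PSA-NCAM+ libraries. The orphan nuclear receptor genes Nr4a1, Nr4a2 and Nr4a3 rose by 1.61, 2.07 and 4.28. Negative regulators of the same response rose with it. These were Dusp1 and Dusp5, phosphatases of MAP kinases (log2 changes 2.51 and 2.67), and Zfp36, which destabilises AU-rich messenger RNAs (log2 change 2.26). The inducible heat-shock genes Hspa1a and Hspa1b, which are near-identical copies and so uncertain one by one, rose by 3.51 and 3.09. Without PSA-NCAM+ replicate 1 the log2 changes were smaller for Hspa1a (1.79), Hspa1b (1.69), Nr4a3 (2.46), Fosl1 (2.83), Atf3 (2.64) and Dusp5 (1.89), and all of these still passed. This list was compiled as a marker of cell dissociation as well as of signalling, and the part of detachment in its rise was not tested.

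**Figure D3:**
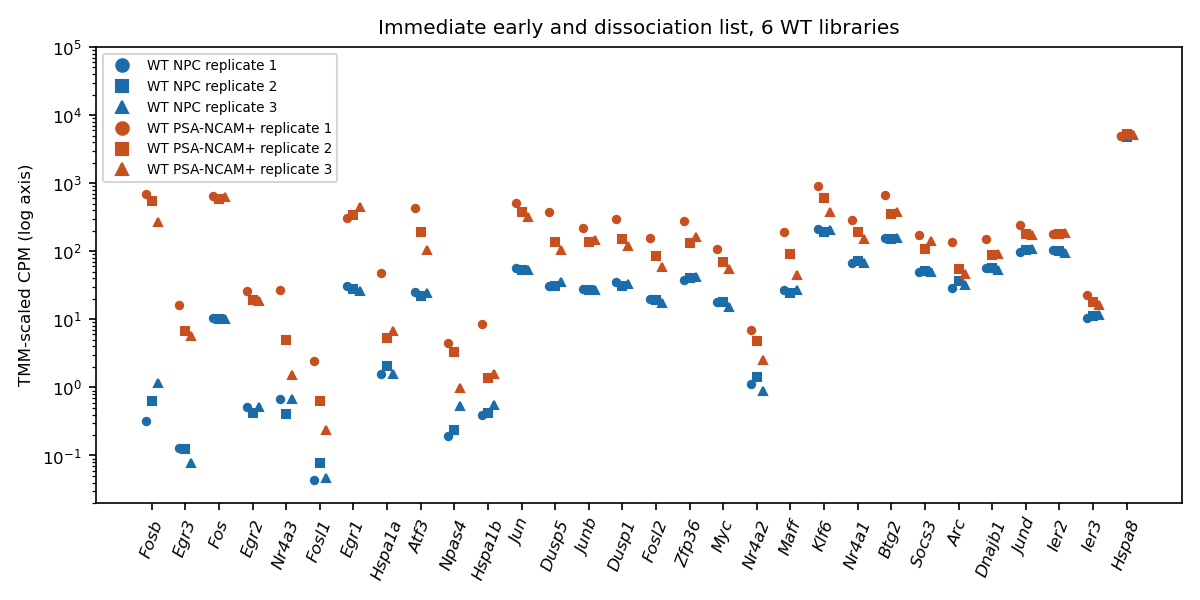
CPM (log axis) of immediate early genes in each WT library; points are the 3 NPC and 3 PSA-NCAM+ libraries. Fos was at 10.4, 10.1 and 10.1 CPM in NPCs and at 653, 592 and 623 CPM in PSA-NCAM+ cells, with no overlap.

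Promoters of the list were searched because its members moved together. RefSeq (GRCm38.p6) gave 250 bases before the start for 23 members. A CArG box, the site of serum response factor, was found on either strand in 3 of them (Egr2, Dusp5 and Zfp36; 13.0%), and in 1.62% of 27025 genes. The cAMP response element TGACGTCA was found in 3 (Dusp1, Btg2 and Maff; 13.0%), and in 1.77% of all genes. The AP-1 site TGACTCA was in 0 of 23, and in 5.16% of all genes. The following stretches run from just before the motif, in capitals, to the base before the RefSeq start. They show the position and spacing of the motifs and are matches of letters only, not measured binding.
Egr2, chr10:67537489-67537565, plus strand: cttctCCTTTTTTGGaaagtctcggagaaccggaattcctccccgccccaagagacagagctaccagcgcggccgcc
Dusp5, chr19:53529058-53529144, plus strand: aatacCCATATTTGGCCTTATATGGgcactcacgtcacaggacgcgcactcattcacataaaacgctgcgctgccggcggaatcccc
Zfp36, chr7:28379229-28379291, minus strand: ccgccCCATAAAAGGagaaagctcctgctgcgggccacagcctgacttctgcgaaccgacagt
Maff, chr15:79347486-79347519, plus strand: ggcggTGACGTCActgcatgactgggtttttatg
The Dusp5 stretch holds CArG boxes back to back, and the others hold a single match.

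The list of genes for PSA-NCAM and its making moved little in sum, while the carrier gene Ncam1 and both polysialyltransferase genes rose. Ncam1, the carrier protein (chromosome 9, 49502136 to 49798925, minus strand), was at 11.9, 12.7 and 12.9 CPM in NPCs and 28.5, 20.9 and 23.1 CPM in PSA-NCAM+ cells (log2 change 0.95 ± 0.14, FDR 0.00333). The polysialyltransferase St8sia2 went from 1.20, 1.77 and 1.84 CPM to 3.41, 4.69 and 4.52 CPM (log2 change 1.38 ± 0.23, FDR 0.00548). St8sia4, the other polysialyltransferase, went from 0.479, 0.393 and 0.362 CPM to 0.941, 2.32 and 3.06 CPM (log2 change 2.35 ± 0.45, FDR 0.00905). No NPC library overlapped a PSA-NCAM+ library for these 3 genes, and replicate 1 was the highest PSA-NCAM+ library for Ncam1 and the lowest for both enzymes. In mature neurons (24-library scaling) the same genes averaged 346, 310.1 and 69.97 CPM. Cmas and Nans, enzymes that supply activated sialic acid, fell by 0.46 and 0.28 on the log2 scale, Nans being uncertain because it overlaps Trim14. Of 10 tested members of the list 3 rose and 4 fell (median log2 change -0.01; 4 and 4 without replicate 1). Ncam2 had no count in any NPC library and averaged 0.104 CPM in PSA-NCAM+ cells, and was not tested.

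Progenitor genes rose in many members, among them filament, adhesion and Notch-target genes. Of 24 tested members, 13 rose and 4 fell, with a median log2 change of 1.11. With replicate 1 of PSA-NCAM+ cells left out, 15 rose and 5 fell. Nes, which encodes nestin (chromosome 3, 87971078 to 87980451, plus strand), was at 35.6, 34.3 and 33.9 CPM in NPCs and 68.2, 94.2 and 100.9 CPM in PSA-NCAM+ cells (log2 change 1.34 ± 0.15, FDR 0.00173). Vim, the intermediate filament vimentin, went from 192, 183 and 176 CPM to 542, 699 and 730.1 CPM (log2 change 1.84 ± 0.13, FDR 0.000547). For both genes replicate 1 was the lowest PSA-NCAM+ library and still above all NPC libraries. Sox9, a factor of progenitors that later form glia, rose from 2.07, 2.73 and 2.77 CPM to 25.7, 18.3 and 11.3 CPM (log2 change 2.86 ± 0.31, FDR 0.0017). N-cadherin (Cdh2), the adhesion protein of neuroepithelium, was at 16.7, 13.8 and 14.5 CPM and then 24.96, 91.6 and 95.5 CPM (log2 change 2.24 ± 0.47, FDR 0.0119), with replicates 2 and 3 far above replicate 1. The Notch targets Hes1 and Hey1 rose by 1.22 and 2.17.

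Several defining progenitor factors went the other way. Sox2, which is shared by pluripotent and neural progenitor cells, fell from 262, 245 and 249.5 CPM to 134, 167 and 128 CPM (log2 change -0.82 ± 0.11, FDR 0.00306). Zic2 fell by 0.90, the RNA-binding protein gene Msi1 by 0.82 and the Wnt antagonist Sfrp2 by 1.08 on the log2 scale. Pax6 was at 4.38, 4.24 and 4.87 CPM and 2.30, 3.65 and 3.45 CPM and did not pass the test (log2 change -0.53 ± 0.21, FDR 0.0865), though it did without PSA-NCAM+ replicate 1 (-0.34, FDR 0.0363). Sox1 was not analysed here.

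Of proneural factors and Notch ligands, 8 of 20 tested members rose and 4 fell (median log2 change 0.86; 11 and 6 without replicate 1). The ligands Dll1 and Dll3 fell by 0.90 and 0.89, and the Notch modifier Mfng fell by 1.19. Among rises were Sox4 and Sox11 (0.96 and 1.41), which act in early neurons, and the growth-arrest genes Btg2 and Gadd45g (1.58 and 1.62, the latter 0.87 without replicate 1). Of the 26 members, 9 never exceeded 1 CPM in any of the 6 libraries.

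Most neuronal genes did not pass the test with all libraries. Of 43 tested members 11 rose and 5 fell, with a median log2 change of 0.34. When PSA-NCAM+ replicate 1 was omitted, 17 rose and 8 fell. Dcx rose from 0.522, 0.0785 and 0.173 CPM to 1.69, 2.38 and 2.11 CPM (log2 change 3.06 ± 0.56, FDR 0.00771). Gap43, a growth-cone protein, rose by 2.15, and Dpysl3, a cytoskeletal protein of growing axons, by 1.30. Tubb3 was at 17.4, 16.02 and 16.2 CPM and 15.2, 23.4 and 24.5 CPM and did not pass (log2 change 0.34 ± 0.18, FDR 0.186). Map2, the dendritic microtubule protein, was at 9.38, 8.54 and 9.28 CPM and 7.79, 16.6 and 16.5 CPM and did not pass (log2 change 0.59 ± 0.28, FDR 0.144). For both genes replicate 1 was the lowest of the PSA-NCAM+ libraries, and without it both passed (Tubb3 0.53, FDR 0.000142; Map2 0.87, FDR 8.23e-06). Rbfox3, the nuclear antigen NeuN of mature neurons, fell by 1.14. Syn1, of synaptic vesicles, had a log2 change of -0.36, FDR 0.193.

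Ion channel and synapse genes divided evenly, with 6 of 37 tested members higher and 7 lower (median log2 change 0.12; 11 and 12 without replicate 1). Sodium channel genes Scn3a and Scn2a1 rose by 1.75 and 0.97, whereas the potassium channel gene Kcnq3 fell by 1.01. The summed level of the list was 349 to 375 CPM in PSA-NCAM+ libraries and 382 to 403 CPM in NPCs. Glial genes were lower in 5 of 12 tested members and higher in 2 (7 and 3 without replicate 1), with Gfap and Olig1 among the lower (log2 changes -1.34 and -1.26). Slc1a2, a glutamate transporter of astrocytes, rose by 1.57.

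Axon guidance and adhesion genes, by contrast, rose widely. Of 48 tested members 29 rose and 2 fell, with a median log2 change of 0.98. Without PSA-NCAM+ replicate 1, 36 rose and 3 fell, and in slow/slow cells 27 rose and 0 fell. The receptors Nrp1 and Nrp2, which bind class 3 semaphorins, rose by 2.54 and 1.30. Nrp1 was at 4.14, 4.02 and 3.42 CPM in NPCs and 12.5, 23.96 and 30.8 CPM in PSA-NCAM+ cells (FDR 0.00253). Among ligands, Sema3a rose by 3.98 and Sema3c by 2.21. The netrin receptor gene Unc5c went from 0.827, 0.581 and 0.504 CPM to 5.73, 4.71 and 5.25 CPM (log2 change 3.05 ± 0.23, FDR 0.000632). Robo2, a receptor for Slit proteins, went from 1.33, 1.32 and 1.51 CPM to 11.8, 10.4 and 11.4 CPM (log2 change 3.01 ± 0.14, FDR 0.000272). In each of these genes the PSA-NCAM+ libraries were above all NPC libraries, and most levels were low. The protocadherin gene Pcdh17 rose by 3.42. The members that fell were Unc5a, another netrin receptor, and Nfasc, an adhesion protein of axons (log2 changes -0.98 and -0.84).

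Pluripotency genes went down in part. Of 14 tested core pluripotency genes 7 fell and 1 rose (median log2 change -0.57; 10 and 3 without replicate 1), and their summed level was 4099 to 4176 CPM in NPCs and 2119 to 2776 CPM in PSA-NCAM+ libraries. Pou5f1 was at 690.3, 645 and 669 CPM and then 356, 528 and 417 CPM (log2 change -0.62 ± 0.14, FDR 0.0161) and remained far above its level in neurons. Dppa5a, an RNA-binding protein of germ and stem cells, went from 187, 163 and 205 CPM to 80.3, 60.6 and 42.8 CPM (FDR 0.00327). Utf1, a chromatin factor of undifferentiated cells, went from 356, 398 and 369 CPM to 119, 142 and 121 CPM (FDR 0.000485). For these genes no PSA-NCAM+ library reached the lowest NPC library.

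Naive pluripotency genes were split, with 5 of 18 lower and 3 higher (median log2 change -0.17; 7 and 4 without replicate 1). Nanog was at 404, 396 and 405 CPM and 275, 304 and 242 CPM (log2 change -0.55 ± 0.10, FDR 0.00651). Klf4, which is also induced by stress and differentiation signals, rose from 115, 118 and 106 CPM to 379, 298 and 139 CPM (log2 change 1.26 ± 0.33, FDR 0.0238). Of formative and epiblast genes 6 of 14 fell and 2 rose (10 and 3 without replicate 1). Otx2, a factor of the epiblast and of anterior neural plate, fell from 23.2, 27.2 and 25.8 CPM to 9.69, 7.70 and 6.92 CPM (log2 change -1.65 ± 0.15, FDR 0.00106), and the DNA methyltransferase gene Dnmt3b fell by 0.84. Lef1, a partner of beta-catenin, rose by 1.21.

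Lists of genes of other lineages differed in direction. In each of the 6 lists, PSA-NCAM+ replicate 1 had the highest summed level of the PSA-NCAM+ libraries. Mesenchyme, muscle and matrix genes rose in 17 of 21 tested members and fell in 1 (median log2 change 1.72). Without replicate 1, 20 rose and 1 fell (median 1.41). Col3a1, a fibrillar collagen (chromosome 1, 45311538 to 45349706, plus strand), was at 4.64, 3.58 and 2.60 CPM in NPCs and 47.99, 45.9 and 55.9 CPM in PSA-NCAM+ cells (log2 change 3.80 ± 0.22, FDR 0.000485). Lox, which crosslinks collagen, rose by 3.60, and the matrix genes Postn and Dcn by 3.77 and 2.68. Postn was at 12.9, 1.26 and 2.08 CPM in PSA-NCAM+ cells, and its log2 change was 2.06 without replicate 1. Summed over the list, NPC libraries held 1864 to 1908 CPM and PSA-NCAM+ libraries 2911 to 3754 CPM.

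Neural crest and placode genes rose in 9 of 17 tested members and fell in 3 (median log2 change 1.14; 12 and 4 without replicate 1). Snai2 and Tfap2a, factors of crest and of surface ectoderm, rose by 1.08 and 1.04, while Sox10, a defining crest factor, fell by 1.48. The summed level was 424 CPM in PSA-NCAM+ replicate 1 and 237 and 262 CPM in replicates 2 and 3, against 188 to 193 CPM in NPCs. Surface ectoderm and epithelial genes rose in 8 of 17 tested members and fell in 0 (median log2 change 0.73). Without replicate 1, 10 rose and 5 fell, and in slow/slow cells 0 rose and 0 fell (median 0.29). Their summed level was 3020.0 CPM in replicate 1, 1403 and 1665 CPM in replicates 2 and 3, and 1248 to 1334 CPM in NPCs. Krt19, a keratin of simple epithelia, was at 54.3, 50.9 and 54.1 CPM in NPCs and 383, 140.1 and 192 CPM in PSA-NCAM+ cells (log2 change 2.17 ± 0.35, FDR 0.00502), and Krt14 was too low to be tested.

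Primitive streak and mesoderm genes rose in 9 of 23 tested members and fell in 3 (median log2 change 0.12; 12 and 5 without replicate 1). Hand2 and Foxc1, mesodermal factors, rose by 2.04 and 1.92, while Tbx1 fell by 1.24. Endodermal genes fell in 6 of 24 and rose in 2, Krt8 and Krt18 (log2 changes 1.76 and 1.53, the latter 0.87 without replicate 1), keratins that other epithelia express too. Their median log2 change was -0.13, and once PSA-NCAM+ replicate 1 was left out 15 fell and 3 rose (median -0.37). Apoe, the lipid carrier also made by glia, fell from 1912, 2147 and 2166 CPM to 882, 795 and 771 CPM (log2 change -1.35 ± 0.09, FDR 0.000557). The defining endodermal factors Gata6 and Foxa2 did not pass (log2 changes -0.01, FDR 0.963 and 0.60, FDR 0.216). The summed endodermal level was 9574 to 10800.0 CPM in NPCs and 15450.0, 8368 and 8638 CPM in PSA-NCAM+ replicates 1 to 3. Endothelial and blood genes rose in 3 of 9 tested members and fell in 1 (median log2 change -0.14; 3 and 3 without replicate 1), and their defining blood markers Ptprc, Hbb-bh1 and Hba-x were too low to be tested. The part of other cell types in the changes of PSA-NCAM+ cells was not tested.

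Among signalling pathways, BMP and TGF-beta genes rose in most members. BMPs are secreted factors that oppose neural fate and act through SMAD proteins, whose classical targets are the Id genes, inhibitors of proneural factors. Of 30 tested members 21 rose and 1 fell, with a median log2 change of 0.91. Leaving out PSA-NCAM+ replicate 1, 24 rose and 2 fell. Id3 (chromosome 4, 136143497 to 136145755, plus strand) was at 11.97, 10.5 and 10.9 CPM in NPCs and 182, 116 and 103 CPM in PSA-NCAM+ cells (log2 change 3.59 ± 0.23, FDR 0.000485). Id1 rose from 11.97, 12.4 and 13.4 CPM to 56.1, 68.2 and 80.7 CPM (log2 change 2.44 ± 0.15, FDR 0.000485). Neither gene had overlapping groups, and replicate 1 was the highest PSA-NCAM+ library for Id3 and the lowest for Id1. Among ligands Bmp4, Bmp2 and Tgfb2 rose by 1.60, 1.99 and 2.55, and the receptor gene Tgfbr2 rose by 1.56. The secreted or intracellular antagonists Nog, Grem1, Fst and Smad7 rose as well, by 1.10, 2.35, 2.27 and 1.10. The member that fell was Nodal, by 0.66.

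Wnt genes rose in 12 of 34 tested members and fell in 3 (median log2 change 0.26; 17 and 4 without replicate 1). Rspo3, a secreted amplifier of Wnt signals, was at 0.109, 0.173 and 0.158 CPM in NPCs and 3.72, 3.54 and 3.47 CPM in PSA-NCAM+ cells (log2 change 4.57 ± 0.22, FDR 0.000321). Wnt5a, a ligand of the non-canonical branch, rose by 2.96. The feedback target Axin2 had a log2 change of 0.25, FDR 0.435, and of 0.49, FDR 0.000254 without replicate 1. FGF and ERK genes fell in 6 of 28 and rose in 2 (median -0.01; 10 and 8 without replicate 1), with Fgf4 and Etv5 lower by 0.99 and 0.50, and Egfr and Fgf18 higher (1.35 and 1.66). Hedgehog genes fell in 3 of 13 and rose in 5 (3 and 7 without replicate 1). Those that fell included the pathway's targets Gli1 and Ptch1 (log2 changes -1.46 and -1.01), and those that rose included the co-receptors Gas1 and Cdon (1.12 and 0.82) and Gli3 (1.28). In the retinoic acid list 5 of 20 rose and 3 fell (8 and 7 without replicate 1). Rdh10 and Aldh1a2, which make retinoic acid, rose by 2.36 and 1.62, and Rarb, a direct target, by 1.24. Crabp2, a carrier of retinoic acid, had a log2 change of 0.88, FDR 0.0565, and passed without replicate 1 (1.18, FDR 9.26e-07).

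Regional identity genes, which mark positions along the neural tube, rose in 12 of 43 tested members and fell in 6 (median log2 change 0.23). Leaving out replicate 1, 23 rose and 9 fell (median 0.59). Dlx2 of the forebrain rose by 2.78, En1 of the midbrain by 2.05 and Hoxb9 of the trunk by 2.09, while Gsx1 and Gsx2 fell (-1.90 and -2.86, the latter -3.70 without replicate 1). Levels were low, and 15 of 47 members stayed under 1 CPM in all 6 libraries.

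Among cell-cycle genes, those of mitosis fell in 19 of 35 tested members and rose in 0 (median log2 change -0.47). Once replicate 1 was dropped, 1 rose and 28 fell. In slow/slow cells 0 rose and 1 fell (median -0.28). Top2a, which untangles chromosomes, was at 874, 869 and 901 CPM in NPCs and 331, 572 and 591 CPM in PSA-NCAM+ cells (log2 change -0.82 ± 0.21, FDR 0.0226). Replicate 1 was the lowest library, and all PSA-NCAM+ libraries were below all NPC libraries. Mybl2, which activates mitotic genes, fell from 1172, 1260.0 and 1172 CPM to 577, 557 and 486 CPM (log2 change -1.15 ± 0.09, FDR 0.000784). Mki67, the usual marker of cycling cells, had a log2 change of -0.18, FDR 0.169. DNA replication genes fell in 13 of 36 and rose in 1, Ccne2 (log2 change 1.27), with a list median of -0.37. Without replicate 1, 4 rose and 21 fell (median -0.22), and in slow/slow cells 0 rose and 0 fell (median -0.26). The summed level of mitosis genes was 8371 to 8518 CPM in NPCs and 4792, 6359 and 6138 CPM in PSA-NCAM+ replicates 1 to 3.

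The list of cell-cycle inhibitors and exit genes also holds cyclin genes of the D and G types. It rose in 11 of 17 tested members and fell in 3 (median log2 change 0.70, with 11 and 5 without replicate 1). Cdkn1a, which encodes the inhibitor p21, was at 67.4, 71.3 and 67.4 CPM in NPCs and 158, 121 and 132 CPM in PSA-NCAM+ cells (log2 change 0.99 ± 0.11, FDR 0.00173). The D-type cyclin gene Ccnd2, which drives entry into the cycle, rose from 16.3, 18.7 and 14.99 CPM to 60.8, 58.4 and 64.3 CPM (log2 change 1.88 ± 0.11, FDR 0.000485). Ccnd1 rose too (log2 change 1.35). Of p53 targets 12 of 23 rose and 1 fell, Sesn1 (median 0.33; 14 and 2 without replicate 1). Mdm2, the ligase that degrades p53, rose by 1.00, the death receptor gene Fas by 2.85 and Plk2 by 1.88, whereas the cell death genes Bax and Bbc3 did not pass (log2 changes -0.21, FDR 0.241 and 0.20, FDR 0.131).

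Metabolic and stress lists had median log2 changes of -0.19 (cholesterol), 0.02 (hypoxia and glycolysis), 0.02 (ATF4 and unfolded protein) and 0.12 (interferon). Cholesterol synthesis genes fell in 9 of 23 and rose in 0 (15 and 3 without replicate 1), each by less than 1 on the log2 scale (Fdps by 0.43, for example). Genes of hypoxia and glycolysis rose in 5 of 31 and fell in 6 (10 and 9 without replicate 1), with the glucose transporter gene Slc2a3 and the kinase gene Pdk1 lower (log2 changes -0.99 and -1.37) and Adm and Ndrg1 higher (2.12 and 1.81). Replicate 1 was far above the other PSA-NCAM+ libraries for both, and without it their log2 changes were 0.96 and 0.73. In the ATF4 and unfolded protein list 6 of 24 rose and 5 fell (8 and 10 without replicate 1). Those that fell were enzymes of serine and asparagine synthesis and the glutathione-degrading Chac1 (Phgdh -0.67, Psat1 -0.60, Asns -0.60, Mthfd2 -0.48 and Chac1 -0.63), while the endoplasmic reticulum chaperone gene Hspa5 rose by 0.93. Interferon and antigen presentation genes rose in 7 of 26 and fell in 5 (12 and 9 without replicate 1). Isg15, an interferon-induced ubiquitin-like protein, was at 0.631, 0.613 and 0.425 CPM in NPCs and 10.9, 1.08 and 1.37 CPM in PSA-NCAM+ cells (log2 change 3.02 ± 0.94, FDR 0.0437). Its rise was largest in replicate 1, and without that library the log2 change was 1.16, FDR 0.00118. Psmb8 of the immunoproteasome fell by 1.37.

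The genes with the largest rises at 5 CPM or more were Fosb, Egr3, Olr1, Fos, Serpinb9e, 4932442L08Rik, Egr2, Serpina3n, Ptgs2, Serpinb9c, Fat4 and Nr4a3. Egr3 was at 0.131, 0.126 and 0.0787 CPM and then 16.1, 6.66 and 5.72 CPM (log2 change 6.41 ± 0.56, FDR 0.000991). Olr1, a receptor for oxidised lipoprotein, went from 0.109, 0.157 and 0.0945 CPM to 18.3, 2.91 and 2.49 CPM (log2 change 6.01 ± 1.03, FDR 0.00612). Replicates 2 and 3 were far below replicate 1 and still above all NPC libraries. Ptgs2, which makes prostaglandins and is itself an immediate early gene, went from 0.697, 0.377 and 0.409 CPM to 25.9, 13.7 and 7.06 CPM (log2 change 5.001, FDR 0.00175). Fat4, a large cadherin of planar cell polarity, went from 0.261, 0.267 and 0.173 CPM to 3.79, 4.52 and 6.96 CPM (log2 change 4.44 ± 0.33, FDR 0.000632). Without replicate 1 the log2 changes were 5.79 for Egr3, 4.45 for Olr1, 4.17 for Serpinb9e, 3.62 for 4932442L08Rik, 4.10 for Serpinb9c and 2.46 for Nr4a3. Serpinb9c and Serpinb9e are members of a cluster of near-identical copies, so their reads may be shared and their values are uncertain.

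The largest falls were smaller, and some of the genes are known from germ cells or metabolism. Among them were Dmrtc2, Tdrd12, Gm128, Lingo3, Dmrt1, Grip2, Slc27a2, Nos3, Ephx2, Capn12 and Pdzk1. Dmrt1, a factor of germ cells and testis, fell from 118, 119 and 124 CPM to 15.5, 43.01 and 40.1 CPM (log2 change -1.87 ± 0.35, FDR 0.00828). Tdrd12, of the piRNA pathway that silences transposons, fell from 17.8, 16.96 and 19.1 CPM to 3.10, 5.97 and 4.40 CPM (log2 change -2.01 ± 0.23, FDR 0.00193). Replicate 1 was the lowest library for both genes. Pdzk1 fell by more without replicate 1 (log2 change -2.29, against -1.70 with all libraries). Gm128, Nos3, Capn12 and Pdzk1 overlap other coding genes (Bnipl, Atg9b, Actn4, and Cd160 and Gpr89), and because use of the strand in counting was not stated their values are uncertain.

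Changes were also grouped by gene span, because long neural genes are a subject of the study. Span is the distance from the first to the last base of the gene in GENCODE vM21. Under 10 kb, 15.6% of 3864 tested genes rose and 19.0% fell, with a median log2 change of -0.06. Over 200 kb, 33.4% of 808 genes rose and 9.65% fell, with a median of 0.28. The classes between lay in order, with medians of -0.02 (10 to 50 kb), 0.07 (50 to 100 kb) and 0.10 (100 to 200 kb). Without PSA-NCAM+ replicate 1 the median over 200 kb was 0.31, and in slow/slow cells it was 0.51, against -0.13 under 10 kb. Robo2 and Unc5c, described above, fall in the longest class, with spans of 519987 and 369709 bases.

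**Figure D4:**
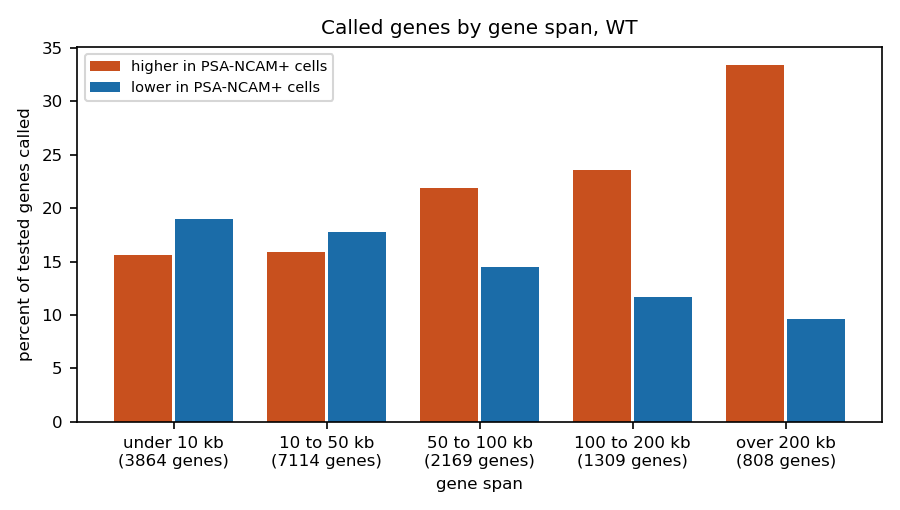
Percent of tested genes called higher and lower in PSA-NCAM+ cells (bars, 6 WT libraries) by class of gene span, with the number of genes tested under each class. The share called higher was 15.6% under 10 kb and 33.4% over 200 kb, and the share called lower was 19.0% and 9.65%.

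The same stages in slow/slow cells share no library with the WT comparison. There 2525 of 15202 genes changed (16.6%; 9.76% higher and 6.85% lower), and 1121 when replicates were blocked by number. That count rests on single libraries, since leaving out slow/slow NPC replicate 1, 2 or 3 left 5, 4 and 64 genes, and leaving out slow/slow PSA-NCAM+ replicate 1 or 2 gave 7587 and 745. Of the 5244 genes called in WT and tested in slow/slow cells, 84.8% had the same sign, against 71.7% of all 14888 genes tested in both, and 50 of the 1440 genes called in both had opposite signs. The change itself differed between genotypes for 668 of 15917 genes (4.2%; 2.41% with a more positive change in slow/slow cells and 1.78% with a more negative one; edgeR's quasi-likelihood test of the interaction), and for 54 to 131 when any 1 NPC library was left out. Among members described above, Sox2, Msi1 and Gli1 fell in WT cells and had log2 changes of 0.07, 0.71 and -0.48 in slow/slow cells (differences 0.89, FDR 0.015; 1.53, FDR 0.00826; and 0.98, FDR 0.0142). Egr2 rose less in slow/slow cells (3.51) than in WT cells (5.44), where its NPC level was lower, 0.522, 0.424 and 0.520 CPM against 4.55, 4.13 and 7.29 CPM. Fos, Ncam1, Nes and Id3 had log2 changes of 6.70, 0.82, 1.46 and 2.66 in slow/slow cells, beside 5.93, 0.95, 1.34 and 3.59 in WT.

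Exon use was compared in the same 6 libraries by PSI (percent spliced in), the percent of an exon's junction reads that include it. An exon was called when the means differed by over 10 points and the posterior probability of that sign was over 0.95. Of 24738 cassette exons and microexons tested 336 were called (1.36%), in 310 genes. Of these, 274 (1.11%) were included less in PSA-NCAM+ cells and 62 more (0.251%), and 61.5% of all tested exons had a difference below 0. Without PSA-NCAM+ replicate 3 there were 554 calls, 86.5% of them lower, and without replicate 1 there were 400, 70% of them lower. In 332 of the 336 the NPC and PSA-NCAM+ libraries did not overlap, which the rule for a call makes likely. Of the 336, 53 lay within 1 point of the 10-point threshold. For each group the posterior was fitted to the mean and variance of the replicates' own distributions, so it widens with the spread between libraries, and it is not adjusted over exons. With limma on the logit of reads, 12 exons passed an FDR of 0.05 over all exons with a difference over 10 points (7 lower and 5 higher), and 443 of 575 exons over 10 points had an unadjusted p under 0.05. Those 575 were picked by their difference in the same libraries, so a high share is likely and does not bear on the calls. Exons included less had a median of 86.1 PSI in NPCs and 70.7 PSI in PSA-NCAM+ cells. A length divisible by 3, which keeps the reading frame, was found for 62.8% of them. The share was 62.0% for tested exons between 20 and 80 PSI in NPCs (median 53.4) and 41.2% for all tested exons (median 99.7). Host genes of the exons included less rose in 60 and fell in 35 of 269 tested cases. The counts were 193 and 167 of 991 for the exons between 20 and 80 PSI, and 3805 and 4605 of 24558 for all tested exons.

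The exon with the largest fall was a 66-nt exon of Tia1, an RNA-binding protein of stress granules that also regulates splicing (chr6:86373600-86373665, mm9). Its PSI was 66.8, 59.2 and 68.5 in NPCs and 41.7, 10.3 and 20.2 in PSA-NCAM+ cells (difference -40.8 points, 155 to 269 reads per library). Nek1, a kinase of cilia and DNA repair, had a 132-nt exon at 77.5, 68.9 and 78.4 PSI and then 50.9, 35.9 and 32.0 PSI (difference -35.3). Cobl, an actin nucleator that shapes dendrites, had a 171-nt exon at 79.1, 77.5 and 84.7 PSI and then 41.7, 52.8 and 50.6 PSI (difference -32.1). Dock9, an activator of Cdc42, had a 78-nt exon at 60.8, 63.4 and 66.7 PSI and then 39.8, 30.9 and 29.5 PSI (difference -30.2). In all of these the ranges of the 3 and 3 libraries were apart. In slow/slow cells the differences were -6.3 (Tia1), 9.9 (Nek1), -10.5 (Cobl) and -3.6 (Dock9), so the exon of Nek1 went the other way. It was at 7.28, 7.94 and 7.14 PSI in slow/slow NPCs and 38.3, 7.45 and 6.38 PSI in slow/slow PSA-NCAM+ cells, so its rise came from replicate 1. The Tia1 exon was at 25.3, 21.7 and 14.2 PSI in slow/slow NPCs, below its WT level. These differences between genotypes were not tested. The other named falls were in Spry1 (difference -36.4), Ccnl1 (73 nt, -35.1), Pon2 (-33.9), Btbd19 (-31.8) and Phf20l1 (-31.5).

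The largest rise outside microexons was in Inf2, an actin-regulating formin, with a 57-nt exon at 23.1, 23.3 and 25.4 PSI and then 68.1, 47.6 and 41.6 PSI (difference 28.5). Pecam1, an adhesion protein of endothelium and of mouse ESCs, had a 54-nt exon at 41.8, 37.8 and 43.6 PSI in NPCs and 63.7, 70.2 and 71.2 PSI in PSA-NCAM+ cells (difference 27.3). Numa1, which anchors the mitotic spindle, had a 42-nt exon at 19.3, 18.7 and 19.5 PSI and then 59.7, 36.1 and 34.3 PSI (difference 24.2), with replicate 1 the highest. Rises also occurred in Odf2l (27.0), Ncoa6 (26.4), Magi1 (25.2), BC053749 (25.1), Flywch1 (24.7) and Scarb1 (23.5). In slow/slow cells the exon of Numa1 was at 3.06, 2.69 and 2.98 PSI in NPCs and 30.3, 4.56 and 4.19 PSI in PSA-NCAM+ cells, so that its difference of 10.1 points comes mostly from replicate 1. The exon of Inf2 was at 7.14, 20 and 5.75 PSI and then 38.5, 15.1 and 6.15 PSI (difference 8.9), and these groups overlap. The exons of Odf2l and BC053749 went the other way (-13.1 and -1.1), differences between genotypes that were not tested. Of called exons measured in slow/slow cells, 80.0% of the 245 lower and 64.0% of the 50 higher had the same sign, against 59.3% of all exons.

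The sequences of exons with large changes are given because length and frame are what inclusion alters. They are from GENCODE vM21 on GRCm38, matched by gene, exon length and flanking intron lengths, with the exon in capitals and 12 bases of the neighbouring exons in lower case.
Dock9, chr14:121577347-121577424, minus strand: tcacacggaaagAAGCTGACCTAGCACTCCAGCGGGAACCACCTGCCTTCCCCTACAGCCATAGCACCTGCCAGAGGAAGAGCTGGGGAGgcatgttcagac
Pecam1, chr11:106681032-106681085, minus strand: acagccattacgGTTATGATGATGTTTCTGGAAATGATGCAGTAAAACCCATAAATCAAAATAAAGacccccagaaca
Numa1, chr7:102002295-102002336, plus strand: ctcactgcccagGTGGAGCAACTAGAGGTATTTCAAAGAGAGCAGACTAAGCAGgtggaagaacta
Each is a multiple of 3 in length.

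Of 307 microexons tested 7 were called (2.28%), 2 included more (0.651%) and 5 less (1.63%). Cyth1, an activator of ARF GTPases, had the shortest, 3 nt, at 21.0, 18.6 and 19.6 PSI in NPCs and 67.7, 40.1 and 40.8 PSI in PSA-NCAM+ cells (difference 29.8). It was highest in replicate 1. Supt5h, a subunit of the DSIF complex that binds elongating RNA polymerase II, had a 12-nt microexon at 62.3, 62.5 and 67.4 PSI and then 83.9, 82.4 and 84.5 PSI (difference 19.6). The 3 PSA-NCAM+ libraries lay close together, 423 to 908 reads covered the event, and the difference in slow/slow cells was 15.5. Hook3, which links cargo to dynein, had a 6-nt microexon at 56.8, 59.5 and 58.5 PSI and then 17.8, 21.0 and 25 PSI (difference -37.0).
The dynamin genes Dnm1 and Dnm2, GTPases that cut endocytic vesicles from the membrane, each had a 12-nt microexon that fell. That of Dnm1 was at 70.5, 75.1 and 76.7 PSI and then 54.9, 50.4 and 53.6 PSI (difference -21.1). That of Dnm2 was at 82.0, 84.7 and 84.6 PSI and then 74.1, 70.5 and 71.9 PSI (difference -11.6). The others were in Ccnl1 (14 nt, -14.1) and Vps29 (12 nt, -10.4), a subunit of the retromer that sorts endosomal cargo. The microexons of the dynamins are shown beside that of Supt5h, in the same layout, because they share a length of 12 nt.
Dnm1, chr2:32323179-32323190, minus strand: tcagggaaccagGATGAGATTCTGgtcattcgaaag
Dnm2, chr9:21490658-21490669, plus strand: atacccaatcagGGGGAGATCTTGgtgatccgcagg
Supt5h, chr7:28330018-28330029, minus strand: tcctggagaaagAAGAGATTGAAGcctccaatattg
The 12-nt exons of Dnm1 and Dnm2 have 8 of 12 bases in common.

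**Figure D5:**
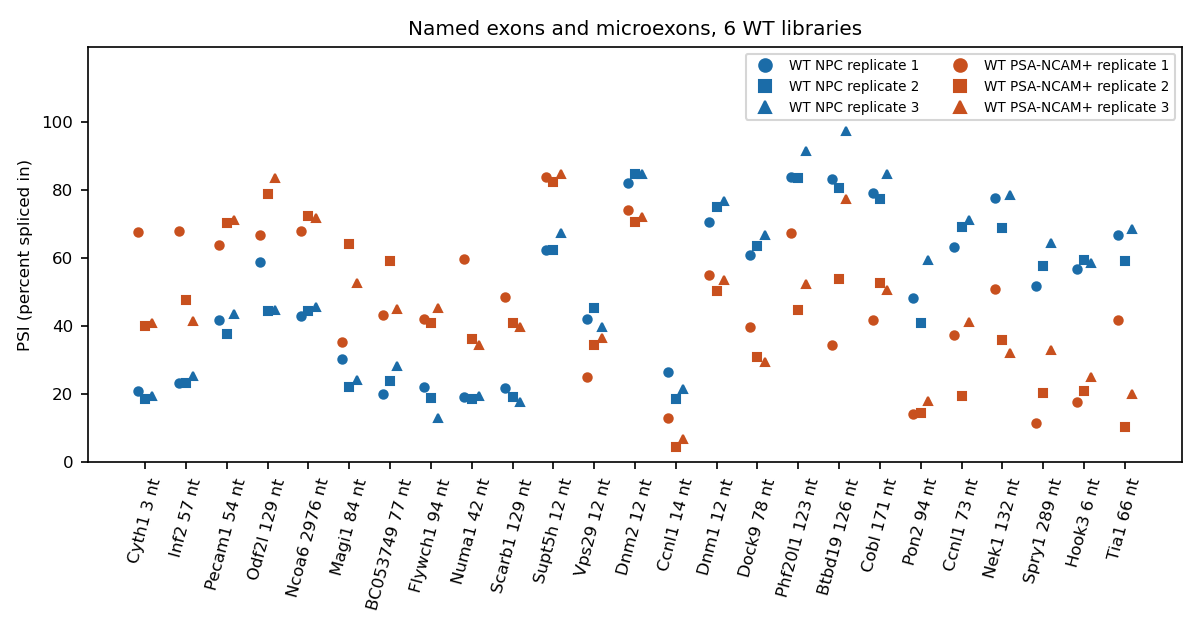
PSI (percent spliced in) of named cassette exons and microexons in each WT library; points are the 3 NPC and 3 PSA-NCAM+ libraries. The Tia1 exon was at 66.8, 59.2 and 68.5 PSI in NPCs and 41.7, 10.3 and 20.2 PSI in PSA-NCAM+ cells.

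Genes of neural splicing regulators rose in 11 of 45 tested members and fell in 4 (median log2 change 0.10; 19 and 7 without replicate 1). Srrm4, the activator of neuronal microexons, was at 2.18, 1.74 and 1.73 CPM in NPCs and 7.05, 3.20 and 2.90 CPM in PSA-NCAM+ cells (log2 change 1.23 ± 0.36, FDR 0.0373), a low level throughout. Mbnl3 and Mbnl1, muscleblind proteins, rose by 2.53 and 1.03. Mbnl3 was at 95.2, 18.1 and 22.4 CPM in PSA-NCAM+ cells, and its log2 change was 1.37 without replicate 1. Ptbp1, which represses neuronal exons, was at 652, 687 and 647 CPM and 590.3, 739.8 and 671 CPM (log2 change 0.01 ± 0.10, FDR 0.944). Nova1 did not pass (log2 change -0.27, FDR 0.192), and Rbfox1 was too low to be tested.
Exons in genes of splicing factors and of related proteins, Ccnl1 and Ythdf3 among them, were grouped by name after values had been seen. They held 14 called exons of 269 tested (5.2%, beside 1.36% of all exons), 12 lower and 2 higher. These shares are not a test, because the group was formed from the same data. The exons also differ, since all tested exons had a median of 99.7 PSI in NPCs. Mbnl2 had a 54-nt exon at 76.3, 80.1 and 85.7 PSI in NPCs and 46.9, 62.2 and 61.6 PSI in PSA-NCAM+ cells (difference -23.8), and -28.6 in slow/slow cells. Hnrnpd had a 147-nt exon that fell (-11.1) and a 57-nt exon that rose (17.9).

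Of 86201 introns 213 were called (0.247%), 142 retained less (0.165%) and 71 more (0.0824%) in PSA-NCAM+ cells. This division depends on PSA-NCAM+ replicate 3, without which 424 were called, 42.7% of them lower. With limma on the logit of reads 0 introns passed an FDR of 0.05, and 500 of 631 introns over 10 points had an unadjusted p under 0.05. Those 631 were picked by their difference in the same libraries, so a high share is likely and does not bear on the calls. Introns retained more were short (median 195 bases, 77.5% under 500), against 1147 bases for all tested introns and 423 bases (54.0% under 500) for introns at 10% or more in NPCs. In slow/slow cells 94.2% of the 121 lower introns measured and 87.9% of the 58 higher had the same sign, against 54.6% of all introns. The largest falls were in Klc1, a kinesin light chain (difference -44.2), Col2a1, a cartilage collagen (-43.4), Add1, of the membrane skeleton (-42.5), and Sbsn (-41.7). Retention in Add1 (chr5:34971822-34973118, mm9) went from 62.3, 64.4 and 65.0 percent to 15.9, 17.5 and 30.8 percent, and differed by -35.3 in slow/slow cells. The largest rises were in Psd (47.3), Dnajb13 (45.2), Arrdc2 (31.4) and Agpat9 (31.3), and reads per library went down to 16 in Psd.

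Alternative splice sites were called in 71 of 25309 events (0.281%), 18 at 3′ and 53 at 5′ sites, and limma on the logit of reads passed 1. Leaving out 1 library gave 92 to 136 calls, the most without PSA-NCAM+ replicate 1. Use of the named 5′ site of Cdh11, an adhesion protein of mesenchyme, rose from 0.0, 0.0 and 0.0 percent to 15.8, 46.1 and 48.4 percent (difference 36.8, 32.7 in slow/slow cells). That of Ccnt2, a cyclin of the kinase that releases paused RNA polymerase II, fell from 72.3, 64.0 and 72.0 percent to 19.4, 40.3 and 39.6 percent (difference -36.3, -38.0 in slow/slow cells). Sites in Cpeb1 and Epc1 fell by 36.3 and 33.2 points.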

How the data were processed

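The authors had made poly(A)-selected, stranded libraries, sequenced 75-base pairs on an Illumina HiSeq, and mapped reads to mm9 with vast-tools; the submitters' processing notes also name bcl2fastq 2.17.1.14 and edgeR. Deposited for each gene and sample were the authors' raw read counts (not normalised, use of strand not stated). For each splicing event and sample the authors deposited PSI, a percent computed by vast-tools from inclusion and exclusion reads, with those reads. Their RPKM means, log2 fold changes, FDR values (slow/slow against WT) and group PSI table were not used, and 0 per-sample columns were left unused. Of 22667 genes listed 21553 had counts, and 20451 (94.9%) matched GENCODE vM21 by identifier.

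Counts were tested with edgeR 4.0.16 (R 4.3.3; filterByExpr, TMM, glmQLFit, glmQLFTest, Benjamini-Hochberg FDR under 0.05) on the 6 WT libraries, and likewise for slow/slow cells. The interaction with genotype used 12 libraries. PSI events had to pass the study's coverage filters in all 6 libraries. A balance score was blank for microexons, so that filter was not applied to them. Introns needed 15 reads and a balance p of 0.05. Differences were judged by beta posteriors of the reads, fitted per group to the mean and variance over replicates, with limma 3.58.1 (logit, 0.5 added to reads) as an alternative. Scripts were tested on simulated data. No 2 libraries agreed within sampling noise.

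Named genes were the 12 largest rises and 12 largest falls at 5 CPM or more with groups apart, examples from 32 lists, Polr2a, the 10 largest exon changes each way, all called microexons, and the 4 largest intron changes each way and splice-site changes. The examples taken from a list, the exons of splicing-factor genes and the trophoblast and germ-line lists were picked after values were seen. Some genes that these rules take are not reported here. The members and lists were chosen with earlier results of these data known. Deviations of libraries with the same replicate number did not correlate in WT (-0.06, -0.07 and -0.02) and correlated weakly in slow/slow cells (0.29, 0.21 and 0.13). The labels give replicate numbers but state no pairing, and the main fits were unpaired. Depth was 46023676 to 84206557 counts; exons had a median of 207 reads. Alternatives were other scalings, filters, tests (DESeq2 1.42.0, limma voom), models, thresholds and left-out libraries.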

Additional observations from a re-analysis of the deposited data

Results flagged for a closer look

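The change from NPCs to PSA-NCAM+ cells differed between slow/slow and WT cells for the following genes, by edgeR's quasi-likelihood test of the interaction over 12 libraries, and each difference is the slow/slow log2 change minus the WT one. It was positive for Msi1 (1.53, FDR 0.00826), Sox2 (0.89, FDR 0.015) and Sfrp2 (2.02, FDR 0.0425), all of which fell in WT cells and had slow/slow log2 changes of 0.71, 0.07 and 0.94. It was also positive for Gli1 (0.98, FDR 0.0142), Nr4a1 (1.75, FDR 0.0251), Spry1 (0.8, FDR 0.0218), Ephx2 (1.53, FDR 0.00637) and Lingo3 (1.32, FDR 0.0499). Sfrp2 was at 31.8, 35.1 and 38.3 CPM in WT NPCs and 12.7, 17.6 and 19.6 CPM in WT PSA-NCAM+ cells, and at 60.1, 72.05 and 81.95 CPM and 62.01, 152 and 198 CPM in slow/slow cells. The difference was negative for Rspo3 (-2.38, FDR 0.0199), Sema3a (-2.22, FDR 0.0433), Egr2 (-1.93, FDR 0.0199), Dazl (-1.66, FDR 0.0263), Fat4 (-1.91, FDR 0.0411), Robo2 (-1.22, FDR 0.0483), Ccnd2 (-0.90, FDR 0.0199) and Hspa5 (-0.69, FDR 0.0184). Rspo3 was at 1.41, 2.04 and 1.72 CPM in slow/slow NPCs and 12.02, 6.07 and 5.54 CPM in slow/slow PSA-NCAM+ cells. Slow/slow PSA-NCAM+ replicate 1 enters all of these differences, and 2276 genes passed the interaction test without it. Leaving out any 1 NPC library left 54 to 131 genes, against 668 with all 12 libraries.

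For the 129-nt exon of Odf2l all PSA-NCAM+ libraries lay above all NPC libraries in WT and below them in slow/slow cells (differences 27.0 and -13.1 points). The 147-nt exon of Hnrnpd showed the reverse (-11.1 and 3.8). Its slow/slow libraries were barely apart, at 63.6, 64.3 and 65.2 PSI in NPCs and 72.0, 67.3 and 65.3 PSI in PSA-NCAM+ cells. Replicate 1 was the highest of these. The difference between genotypes was not tested for these exons.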

How the results depend on the processing

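The count of 5394 changed genes was 8357 with limma voom and quality weights and 1657 with a further 2-fold minimum, and lay within 1.5 times of the main count under other scalings, models and filters and DESeq2's Wald test. For slow/slow cells the count of 2525 was 4313 by the Wald test and 1280 with the 2-fold minimum, and for the interaction 668 became 2421 in 1 model of 24 samples, 1579 by the Wald test and 356 with the 2-fold minimum. List members called went from 390 to 205 with the 2-fold minimum. The fits with the replicate block called 3951, 1121 and 477 genes and 342 list members. Deviations by replicate number correlated, weakly, in the slow/slow libraries only. At 15 PSI points 147 exons, 112 introns and 39 splice-site events were called, and at a probability of 0.99 it was 174, 84 and 27. Limma on the logit of reads called 12, 0 and 1. Adding the replicate block to limma changed this to 61, 0 and 4. With unadjusted p under 0.05, 500 of 631 introns over 10 points remained without the block and 532 with it, a share made likely by the choice of introns by their difference. Leaving out 1 library gave 2191 to 8943 genes in WT, 4 to 7587 in slow/slow cells and 54 to 2276 for the interaction, 216 to 579 list members, 339 to 554 exons, 253 to 424 introns and 92 to 136 splice-site events. The highest counts came without PSA-NCAM+ replicate 1 of the genotype for genes, without WT PSA-NCAM+ replicate 3 for exons and introns, and without WT PSA-NCAM+ replicate 1 for splice sites. Omitting an NPC library lowered gene counts; the cause was not tested. The median log2 difference between genes over 200 kb and under 10 kb, 0.33, stayed between 0.28 and 0.40. Of 182 genes named in the text, 43 lost a call and 8 gained a call when 1 library was left out. All 43 lost it without at least 1 WT NPC library (34, 42 and 41 for WT NPC replicates 1, 2 and 3). Under another setting 48 lost a call, 33 of them through the 2-fold minimum and 5 in the fit with the replicate block, and 6 gained a call. Of 48 named splicing events, 6 lost their call when 1 library was left out and 42 in limma on the logit of reads. None of these changed sign. Upper-quartile scaling moved the median of all genes to -0.047. Exons with few reads are the least precise, and genes under 1 CPM rest on few counts.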

Other observations

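Genes of trophoblast, the lineage of the placenta, were high in PSA-NCAM+ replicate 1. This list and the next were compiled after values had been seen. Of 17 tested trophoblast genes 12 rose and 0 fell in WT cells (median log2 change 1.83). Without PSA-NCAM+ replicate 1, 14 rose and 1 fell (median 1.19), and in slow/slow cells 1 rose and 0 fell (median 0.81). Summed over the list, NPC libraries held 331 to 337 CPM and PSA-NCAM+ libraries 1704, 614 and 760.1 CPM. Gata3, a trophectoderm factor that other epithelia also use, was at 7.38, 7.84 and 6.71 CPM in NPCs and 49.95, 13.8 and 14.9 CPM in PSA-NCAM+ cells (log2 change 1.85 ± 0.50, FDR 0.0281). Lgals3, a galectin of trophoblast and macrophages, went from 10.4, 8.39 and 9.72 CPM to 216, 42.2 and 44.5 CPM (log2 change 3.41 ± 0.68, FDR 0.0102). Without that replicate the log2 changes were 0.98 for Gata3 and 2.19 for Lgals3. The defining placental hormone and trophoblast stem cell genes Prl3d1, Tpbpa and Elf5 were too low to be tested.

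Of 22 tested germ-line genes 8 fell and 1 rose in WT cells (median log2 change -0.60). The list holds Dmrt1, Dmrtc2 and Tdrd12, which are among the largest falls named above, so its counts partly restate that choice. Without PSA-NCAM+ replicate 1, 13 fell and 1 rose (median -0.44), and in slow/slow cells 8 fell and 0 rose. The summed level was 569.6 to 584 CPM in NPCs and 184, 426 and 357 CPM in PSA-NCAM+ libraries. Mov10l1 and Piwil2, of the piRNA pathway, fell by 0.97 and 1.04 on the log2 scale, and Dppa3, shared by germ cells and naive stem cells, fell by 1.25. The member that rose was Dazl, an RNA-binding protein of germ cells (log2 change 0.73, FDR 0.0167). The part of other cells in these changes was not tested.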
